A study of Mus musculus with 6 samples.

Results

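The semaphorins, the ephrins and their receptors form the larger families of axon guidance genes, and 53 of the 21240 genes in the count table carry a name of these families. They comprise 20 semaphorins, 9 plexins, 2 neuropilins, 9 EphA receptors, 5 EphB receptors, 5 ephrin-A genes and 3 ephrin-B genes, taken by their gene symbols. Expression was measured by stranded total RNA-seq in NMuMG cells, a line of mouse mammary epithelium that responds to transforming growth factor β (TGFβ) with an epithelial-to-mesenchymal transition. All cells were kept for 6 h without serum and insulin, and 3 groups of 2 biological replicates then received vehicle for 2 h, 5 ng/ml TGFβ1 for 2 h or 5 ng/ml TGFβ1 for 12 h. The vehicle is a dilute solution of HCl and bovine serum albumin. Since vehicle was sampled at 2 h only, TGFβ1 and a longer time without serum cannot be told apart in the comparison of 12 h with vehicle. The 6 libraries come from 1 cell line and no tissue.

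Semaphorins are secreted or membrane-bound ligands whose main receptors are the plexins. Class 3 semaphorins are secreted and mostly need a neuropilin beside the plexin, while classes 4, 5 and 6 span the membrane and class 7 is held by a lipid anchor. Activated plexins act on small GTPases, through which cells lose adhesion and retract. Eph receptors are receptor tyrosine kinases, and their ligands, the ephrins, sit on the surface of the neighboring cell, by a lipid anchor in the A class and by a transmembrane stretch in the B class. Contact between cells can therefore signal in both directions, and the pair is known in epithelia for setting boundaries between cell populations and for regulating junctions and migration.

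The libraries held 14705886 to 23786993 counts. Levels are given as CPM, counts divided by library size, after scaling by edgeR's TMM factors of 0.961 to 1.07. A gene was tested where it reached 2 CPM in at least 2 libraries, which 11080 genes did, among them 38 of the 53 guidance genes. The label of an epithelial line was checked with markers. Of 10 epithelial markers, 6 passed this filter, with the keratins Krt8 and Krt18 above 1010 CPM and the E-cadherin gene Cdh1 above 337 CPM in every library, while Epcam, Cldn3, Cldn7 and Esrp1 stayed at or below 0.697 CPM. Krt19 was at 1661 to 1845 CPM in the vehicle and 2 h libraries and fell to 420 and 489 CPM at 12 h (log2FC −1.95, adjusted p = 0.000103), whereas Krt8 and Krt18 rose by 12 h (1.63 and 1.53, adjusted p = 0.000114 and 0.000275). Krt7 had a 12 h log2FC of 1.60 and passed the filter only through TGFβ1 libraries, and Cdh1 and Ocln were not called (adjusted p = 0.762 and 0.117). The summed level of the epithelial list was 5024 to 5864 CPM in vehicle, 6516 to 6522 CPM at 2 h and 10374 to 10417 CPM at 12 h, mostly from Krt8 and Krt18. Markers of other cell types were low, with 2 of 8 fibroblast, 1 of 7 neuronal, 1 of 6 blood cell and 0 of 7 endothelial markers passing the filter. Their summed levels were 3.57 to 5.24 CPM in vehicle, 9.12 to 9.76 CPM at 2 h and 14.8 to 16.6 CPM at 12 h for fibroblasts, and 6.65 to 8.53, 7.61 to 9.45 and 10.9 to 11.8 CPM in the same order for neurons. Endothelial markers summed to 0.412 to 0.446, 0.554 to 0.657 and 1.96 to 2.21 CPM, and blood cell markers to 6.82 to 7.07, 6.62 to 6.80 and 4.35 to 6.36 CPM. Thy1, Rbfox3, Nefl, Cldn5, Emcn and Cd3e were at 0 in all libraries. The part of these small amounts in the results on guidance genes was not tested, and in such bulk samples fewer cells of a type and less RNA per cell cannot be told apart. Smad7, Skil and Junb, known early targets of TGFβ signaling, rose at both times, with log2FC of 2.07 to 3.51 at 2 h and of 2.21 to 3.98 at 12 h.

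More guidance genes rose than fell after TGFβ1, at both times. At 2 h, 15 of the 38 tested guidance genes were higher than in vehicle and 3 were lower by edgeR's quasi-likelihood test at an adjusted p under 0.05. That is 39.5% and 7.89% of them, where 9.91% of all tested genes were higher and 5.25% lower. At 12 h, 18 were higher and 10 lower, which is 47.4% and 26.3%, with 21.8% of all tested genes higher and 21.5% lower. Changes of more than 1 on the log2 scale were called in 12 guidance genes at 2 h, of which 10 had risen and 2 had fallen, beside 4.23% and 2.01% of all genes. At 12 h they were called in 23, with 14 risen and 9 fallen, beside 8.03% and 11.6% of all genes. The median log2FC of the 38 genes was 0.45 at 2 h and 0.60 at 12 h, and that of all tested genes was −0.01 and 0.02. The higher calls at both times include Sema4f, Ephb2 and Efna3, which passed the filter only through TGFβ1 libraries, where they are high. With a filter of at least 10 counts in every library, which leaves them out, 12 of 35 guidance genes were higher at 2 h and 15 of 35 at 12 h, beside 9.62% and 20.6% of the 11055 genes tested in this way. Without TMM factors the median of all genes shifted by −0.11 at 2 h and −0.13 at 12 h, and the guidance genes called at 2 h were then 13 higher and 6 lower, beside 7.71% and 8.79% of all genes. With the replicate number as a block, 20 were higher and 8 lower at 2 h, beside 16.4% and 12.7% of all genes. The 3 lower calls at 2 h also depended on single libraries, with 1 left without vehicle replicate 1 or without either 12 h library, 2 without vehicle replicate 2, and 4 or 5 without a 2 h library.

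**Figure D1:**
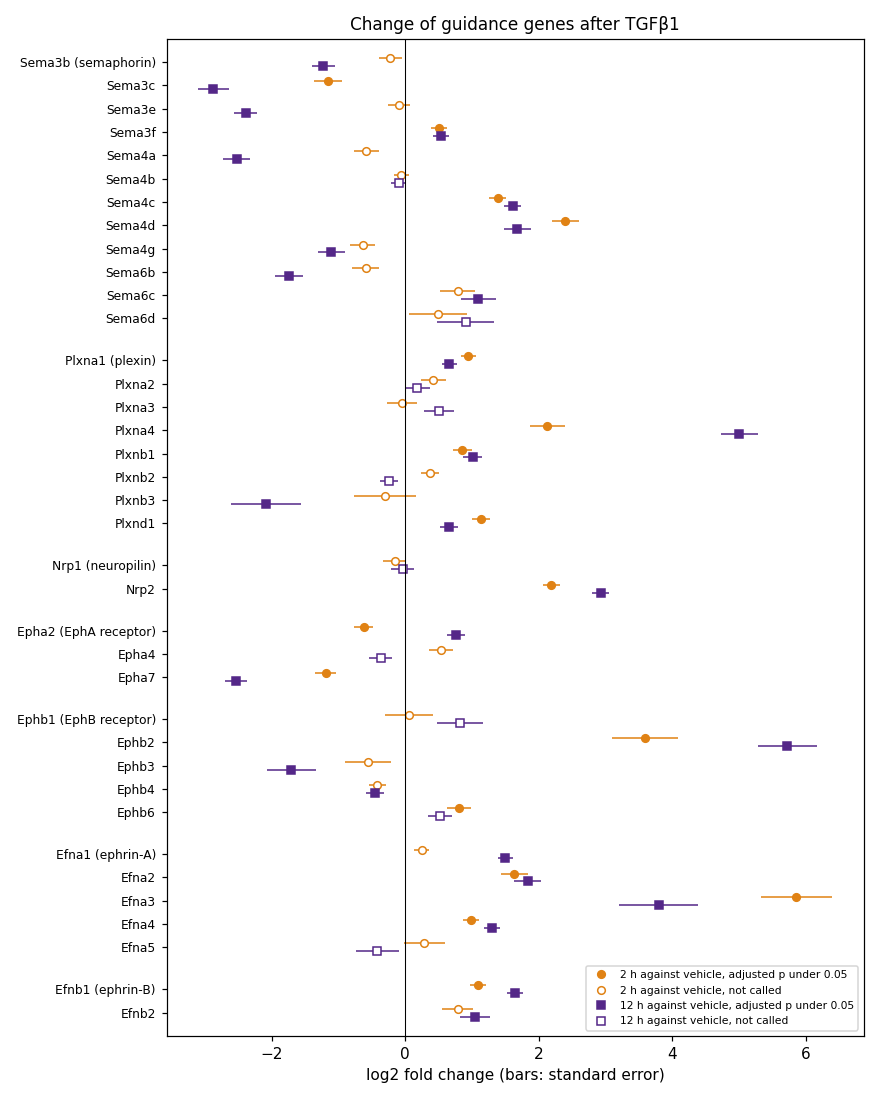
Log2 fold change against vehicle (horizontal axis) of 37 tested guidance genes (rows, by family) after 2 h (orange circles) and 12 h (purple squares) of TGFβ1, with standard errors from edgeR's fit as bars and filled symbols for an adjusted p under 0.05. Sema4f is left out because it had no count in vehicle. Ephb2, Efna3 and Plxna4 lie farthest to the right, and Sema3c, Epha7, Sema4a and Sema3e are the farthest to the left at 12 h.

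Both ligands and receptors were among the genes that changed. Of 20 tested ligands, 11 were higher and 6 lower at 12 h (55% and 30%), and of 18 tested receptors 7 were higher and 4 lower (38.9% and 22.2%), beside 21.8% and 21.5% of all genes. With at least 10 counts in every library, which leaves out Sema4f, Efna3 and Ephb2, these were 9 and 6 of 18 ligands and 6 and 4 of 17 receptors, beside 20.6% and 20.3% of all genes, and the share of receptors that were lower was near that of all genes under both filters. Ephrins had no lower member, with 4 of 7 higher at 2 h and 6 of 7 at 12 h, or 3 and 5 of 6 under the filter that leaves out Efna3. Semaphorins moved both ways, with 5 of 13 higher and 6 of 13 lower at 12 h, or 4 and 6 of 12 without Sema4f. Plexins and neuropilins together had 5 of 10 higher and 1 of 10 lower at 12 h. Of the Eph receptors 2 of 8 were higher and 3 lower, or 1 and 3 of 7 without Ephb2, and their share of higher calls was close to or below that of all genes. The difference between these families was not tested.

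To show the sequence at the start of the genes that changed most at 12 h, the 250 bases before the annotated start are given for the 3 higher and the 3 lower members with the largest log2FC among those with 10 or more counts in each library of the group where they were higher and an entry in RefSeq's promoter table on GRCm38.p6, 5′ to 3′ on the gene's strand. Plxna4 and 5 other members, Sema3f, Sema6a, Plxna1, Sema3b and Efnb3, had no entry. The 3 higher members, Sema4f, Ephb2 and Efna3, passed the filter only through TGFβ1 libraries. They had 0, 4 and 4 pooled vehicle counts, so that the size of their log2FC is uncertain. They are also among the higher members whose promoter shares are given below. Capitals mark matches on either strand to CAGAC, the letters of a Smad-binding element, to CAGGTG, the E-box bound by Snail and Zeb factors, or to TGANTCA, an AP-1 site. No 2 matches overlap.
Sema4f (chr6:82939770-82940019, minus strand): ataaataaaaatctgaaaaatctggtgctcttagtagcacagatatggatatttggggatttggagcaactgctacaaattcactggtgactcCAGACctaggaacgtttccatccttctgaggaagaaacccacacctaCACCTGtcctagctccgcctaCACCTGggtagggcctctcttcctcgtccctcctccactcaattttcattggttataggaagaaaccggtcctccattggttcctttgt
Ephb2 (chr4:136836013-136836262, minus strand): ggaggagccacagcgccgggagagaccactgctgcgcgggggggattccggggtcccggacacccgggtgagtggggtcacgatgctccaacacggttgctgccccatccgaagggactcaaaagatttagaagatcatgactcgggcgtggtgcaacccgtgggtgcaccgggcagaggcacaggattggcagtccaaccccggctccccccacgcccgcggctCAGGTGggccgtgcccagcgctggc
Efna3 (chr3:89322940-89323189, minus strand): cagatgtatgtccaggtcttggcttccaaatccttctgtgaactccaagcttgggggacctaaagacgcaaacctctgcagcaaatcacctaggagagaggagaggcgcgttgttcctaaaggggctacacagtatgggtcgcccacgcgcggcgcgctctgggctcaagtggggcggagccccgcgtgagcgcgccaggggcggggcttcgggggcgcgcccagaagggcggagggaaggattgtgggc
Sema3c (chr5:17574566-17574815, plus strand): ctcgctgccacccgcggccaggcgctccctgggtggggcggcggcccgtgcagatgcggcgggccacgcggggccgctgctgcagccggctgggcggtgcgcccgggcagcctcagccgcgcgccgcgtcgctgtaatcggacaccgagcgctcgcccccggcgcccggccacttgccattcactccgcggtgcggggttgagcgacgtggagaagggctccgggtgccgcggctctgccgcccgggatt
Epha7 (chr4:28812881-28813130, plus strand): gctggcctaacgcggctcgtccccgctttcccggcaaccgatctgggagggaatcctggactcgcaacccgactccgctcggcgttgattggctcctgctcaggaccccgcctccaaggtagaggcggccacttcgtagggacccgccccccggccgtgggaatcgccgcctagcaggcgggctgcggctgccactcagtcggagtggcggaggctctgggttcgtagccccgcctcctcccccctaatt
Sema4a (chr3:88461183-88461432, minus strand): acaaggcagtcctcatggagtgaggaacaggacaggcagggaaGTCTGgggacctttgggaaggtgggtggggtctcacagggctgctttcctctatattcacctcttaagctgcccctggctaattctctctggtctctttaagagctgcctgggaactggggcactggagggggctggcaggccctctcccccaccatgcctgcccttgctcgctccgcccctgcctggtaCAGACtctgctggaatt
Sema4f had CAGAC once and the E-box at 2 places, Ephb2 had a single E-box, Sema4a had CAGAC at 2 places, and the windows of Efna3, Sema3c and Epha7 held none of the 3 motifs. RefSeq lists 2 promoters each for Efna3 and Epha7 and 4 for Sema4a, and the first listed was printed. The other Efna3 window, with 50 bases past the start, holds CAGAC at 4 places, both Epha7 windows of that length hold it once, and the 4 Sema4a windows hold it at 0 to 4 places. In windows that run 50 bases past the start, CAGAC stood in 68.4% of 19 promoters of the members that rose by more than 1 on the log2 scale at 12 h, in 61.5% of 13 promoters of those that fell and in 49.6% of the 32851 promoters of all genes. The E-box stood in 21.1% of the promoters of the higher members and in 0 of those of the lower members, beside 20.2% of all promoters. TGANTCA was found in 10.5% and 7.69%, beside 7.81% of all promoters. With so few promoters, several of them of the same gene, these shares are descriptions of letters and say nothing about binding.

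In vehicle, the receptors Plxnb2 and Ephb4 had the highest levels per length. Divided by the length of all annotated exons, Plxnb2, a receptor of class 4 semaphorins, stood at 152 CPM per kb ± 16.7 (SD, n = 2) and Ephb4, the receptor best known for its pairing with ephrin-B2, at 68.9 ± 2.17 CPM per kb. Next came Nrp1 at 48.0 ± 5.61, Sema3c at 45.8 ± 4.28, Epha2 at 41.6 ± 4.22 and Epha4 at 39.0 ± 2.92 CPM per kb, and neighbors among these 4 genes differed by less than their spread. Sema3f followed at 32.4 ± 1.75, Efna1 at 23.7 ± 0.239 and Plxna1 at 22.4 ± 0.503 CPM per kb. At 12 h of TGFβ1 the order had changed below Plxnb2, which was still first at 129 ± 7.83 CPM per kb. Epha2 stood at 70.6 ± 8.23 and its ligand gene Efna1 at 67.0 ± 4.87 CPM per kb, which do not differ beyond their spread. Below them were Ephb4 at 50.3 ± 3.34, Sema3f at 47.1 ± 2.26, Nrp1 at 46.8 ± 1.24 and Nrp2 at 44.6 ± 0.703 CPM per kb, while Sema3c had gone to 6.25 ± 0.516 CPM per kb. Efna5 is missing from this scale because it was not matched to a position.

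**Figure D2:**
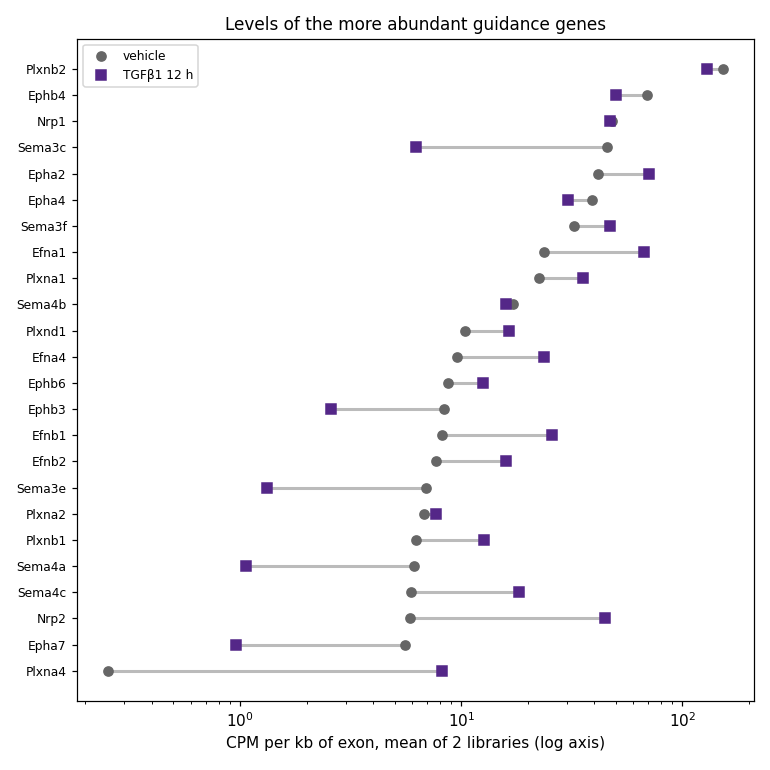
Levels in CPM per kb of exon on a log axis (horizontal) of the 24 guidance genes that reach 5 CPM per kb in vehicle (gray circles) or at 12 h of TGFβ1 (purple squares), each the mean of 2 libraries, ordered by the level in vehicle. The gray lines join the 2 groups, and the longest of them belong to Plxna4, Sema3c, Nrp2, Epha7, Sema4a and Sema3e.

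Among the secreted class 3 semaphorins, 3 of the 4 tested members fell by 12 h and 1 rose, beside 21.5% and 21.8% of all tested genes. The class has 7 members, and Sema3a, Sema3d and Sema3g were below the filter. Sema3c, a ligand of neuropilin-plexin complexes, was the most abundant semaphorin of the vehicle cells per length. It read 348 and 305 CPM in the vehicle libraries, 179 and 114 CPM at 2 h and 47.2 and 42.0 CPM at 12 h. The 3 groups did not overlap, and the level went down at each time, by a log2FC of −1.15 at 2 h (SE 0.21, adjusted p = 0.0155) and of −2.87 at 12 h (SE 0.23, adjusted p = 0.000191). Sema3e, which binds plexin-D1 without a neuropilin, had 56.1 and 49.3 CPM in vehicle, 56.3 and 42.5 CPM at 2 h and 10.5 and 9.59 CPM at 12 h. Its 2 h libraries spanned the vehicle range and its 12 h libraries lay far below it, with a log2FC of −2.39 (SE 0.17, adjusted p = 0.000148). Sema3b, studied as a tumor suppressor, had 10.5 and 9.68 CPM in vehicle, 9.05 and 8.27 CPM at 2 h and 4.18 and 4.46 CPM at 12 h. The 12 h libraries were the low ones, at a log2FC of −1.23 (SE 0.18, adjusted p = 0.00204). Its neighbor Sema3f, a preferred ligand of neuropilin-2, was the exception in the class and rose by a log2FC of 0.50 at 2 h and 0.54 at 12 h (adjusted p = 0.0345 and 0.0104). The start sites of Sema3b and Sema3f lie 101 kb apart on chromosome 9 (mm9), with 3 counted genes between them. The 2 h call of Sema3c was lost without vehicle replicate 1 (adjusted p = 0.0821) and without either 12 h library (0.0554 and 0.0556). That of Sema3f was lost in 5 of 6 such fits, without either vehicle library, 2 h replicate 2 or either 12 h library (adjusted p of 0.0855 to 0.203), and its 12 h call without vehicle replicate 1 (0.0746) and without 12 h replicate 2 (0.0778).

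The class 4 semaphorins, membrane proteins with a range of plexin partners, moved in both directions. At 12 h 3 of 6 were higher and 2 of 6 lower, beside 21.8% and 21.5% of all genes. With at least 10 counts in every library, which leaves out Sema4f, 2 of 5 were higher and 2 of 5 lower, beside 20.6% and 20.3%. Sema4f had no count in either vehicle library, 1.01 and 1.06 CPM at 2 h and 7.31 and 9.13 CPM at 12 h. Against a limit of 3 counts in each vehicle library it was at least 5.64-fold higher at 2 h and at least 44.4-fold higher at 12 h, and no p is given because it passed the filter only through its 12 h libraries. Its promoter is the one printed above that holds both CAGAC and the E-box. Sema4d, the ligand of plexin-B1 known for its roles in lymphocytes and in invasion, had 3.35 and 4.78 CPM in vehicle, 20.8 and 22.0 CPM at 2 h and 13.4 and 12.6 CPM at 12 h. It was highest at 2 h, with a log2FC of 2.40 (SE 0.20, adjusted p = 0.000973), and still above both vehicle libraries at 12 h, with 1.68 (SE 0.20, adjusted p = 0.000955). Sema4c, a ligand of plexin-B2, read 26.4 and 28.3 CPM in vehicle, 74.1 and 69.1 CPM at 2 h and 76.0 and 91.2 CPM at 12 h. Most of its rise was present at 2 h, at a log2FC of 1.39 against 1.61 at 12 h (adjusted p = 0.00124 and 0.000193).

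The other class 4 members fell or were not called. Sema4a, a semaphorin with several plexin partners and known roles in immune cells, had 31.3 and 34.6 CPM in vehicle, 25.8 and 18.2 CPM at 2 h and 5.88 and 5.59 CPM at 12 h. Its 2 h libraries lay below the vehicle libraries without passing the test (log2FC −0.58, adjusted p = 0.0896), and at 12 h the log2FC was −2.52 (SE 0.20, adjusted p = 0.000202). Sema4g had 21.5 and 18.1 CPM in vehicle, 14.5 and 10.9 CPM at 2 h and 9.66 and 8.72 CPM at 12 h. Only its 12 h difference was called, with a log2FC of −1.10 (SE 0.20, adjusted p = 0.00453). Sema4b was the flattest of the class, with 94.1 and 91.7 CPM in vehicle, log2FC of −0.06 and −0.10 and adjusted p of 0.755 and 0.520.

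Of the class 6 semaphorins, which act on plexin-A receptors, Sema6b fell and Sema6c rose. Sema6b had 7.53 and 8.40 CPM in vehicle, 4.85 and 5.70 CPM at 2 h and 2.31 and 2.46 CPM at 12 h. The groups did not overlap, and the 12 h difference was called at a log2FC of −1.74 (SE 0.21, adjusted p = 0.000983). Sema6c had 2.41 and 2.48 CPM in vehicle, 3.44 and 4.99 CPM at 2 h and 5.22 and 5.23 CPM at 12 h, where it was higher by a log2FC of 1.09 (SE 0.26, adjusted p = 0.0147). This call was lost without either vehicle library or either 12 h library (adjusted p of 0.0667 to 0.0762). Sema6d had a log2FC of 0.90 at 12 h with an SE of 0.43, which was not called (adjusted p = 0.133).

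The semaphorin receptors with the largest changes were Plxna4 and Nrp2, and both rose at each time. Plxna4, a plexin best known in sensory and sympathetic neurons, had 3.82 and 2.55 CPM in vehicle, 11.1 and 16.9 CPM at 2 h and 105 and 100 CPM at 12 h. The 3 groups were far apart, with a log2FC of 2.13 at 2 h (SE 0.27, adjusted p = 0.00368) and of 5.00 at 12 h (SE 0.27, adjusted p = 5.59e-05). Nrp2, the co-receptor of Sema3f and Sema3c that also binds vascular growth factors, had 50.2 and 61.6 CPM in vehicle, 257 and 251 CPM at 2 h and 420 and 429 CPM at 12 h. Its log2FC was 2.18 at 2 h (SE 0.13, adjusted p = 0.000266) and 2.92 at 12 h (SE 0.13, adjusted p = 3.68e-05). Nrp1, the other neuropilin, stood at 307 and 260 CPM in vehicle and 282 and 272 CPM at 12 h and was not called at either time, with log2FC of −0.16 (SE 0.17) and −0.04 (SE 0.17). Per kb of exon, Nrp1 and Nrp2 stood at 48.0 and 5.88 CPM in vehicle and at 46.8 and 44.6 CPM at 12 h, so that the neuropilins came to similar levels.

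Smaller changes were spread over the other plexins. Plxnd1, the receptor of Sema3e, had 69.4 and 80.8 CPM in vehicle, 150 and 181 CPM at 2 h and 115 and 122 CPM at 12 h. It was highest at 2 h, with a log2FC of 1.14 (SE 0.13, adjusted p = 0.00298), and remained higher than vehicle at 12 h, with 0.65 (SE 0.13, adjusted p = 0.00816). Plxnb1, the receptor of Sema4d, had 51.3 and 60.9 CPM in vehicle, 94.2 and 108 CPM at 2 h and 104 and 122 CPM at 12 h, with log2FC of 0.85 (adjusted p = 0.0103) and 1.01 (adjusted p = 0.00176). Plxna1, a signaling partner of the neuropilins, rose by a log2FC of 0.95 at 2 h and 0.66 at 12 h (adjusted p = 0.00332 and 0.00418). Plxnb3, which binds Sema5a, had 3.82 and 2.04 CPM in vehicle, 3.13 and 1.61 CPM at 2 h and 0.522 and 0.872 CPM at 12 h, a log2FC of −2.08. It passed the filter only through vehicle and 2 h libraries, where it is higher, and with at least 10 counts in every library, a filter it also passed, its adjusted p was 0.0153. Plxna2, Plxna3 and Plxnb2 were not called against vehicle at either time, with log2FC between −0.24 and 0.50. The 2 h call of Plxnb1 was lost without vehicle replicate 1 (adjusted p = 0.0769). At 12 h the call of Plxnd1 was lost without vehicle replicate 1 (0.0598) or 12 h replicate 2 (0.0631) and that of Plxnb3 without vehicle replicate 1 or either 12 h library.

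In the semaphorin pairs named here, ligands and receptors that are known to bind each other did not share 1 course. Sema4d and Plxnb1 both rose at both times, by log2FC of 2.40 and 0.85 at 2 h. Sema4c rose at both times while its receptor Plxnb2 was not called against vehicle. Sema3e fell at 12 h while Plxnd1 rose. Sema3c fell at both times while Nrp2 rose, and Sema3f rose with Nrp2. These pairs are a choice from textbook knowledge, leave out the ephrins and Eph receptors, and were not tested as pairs.

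**Figure D3:**
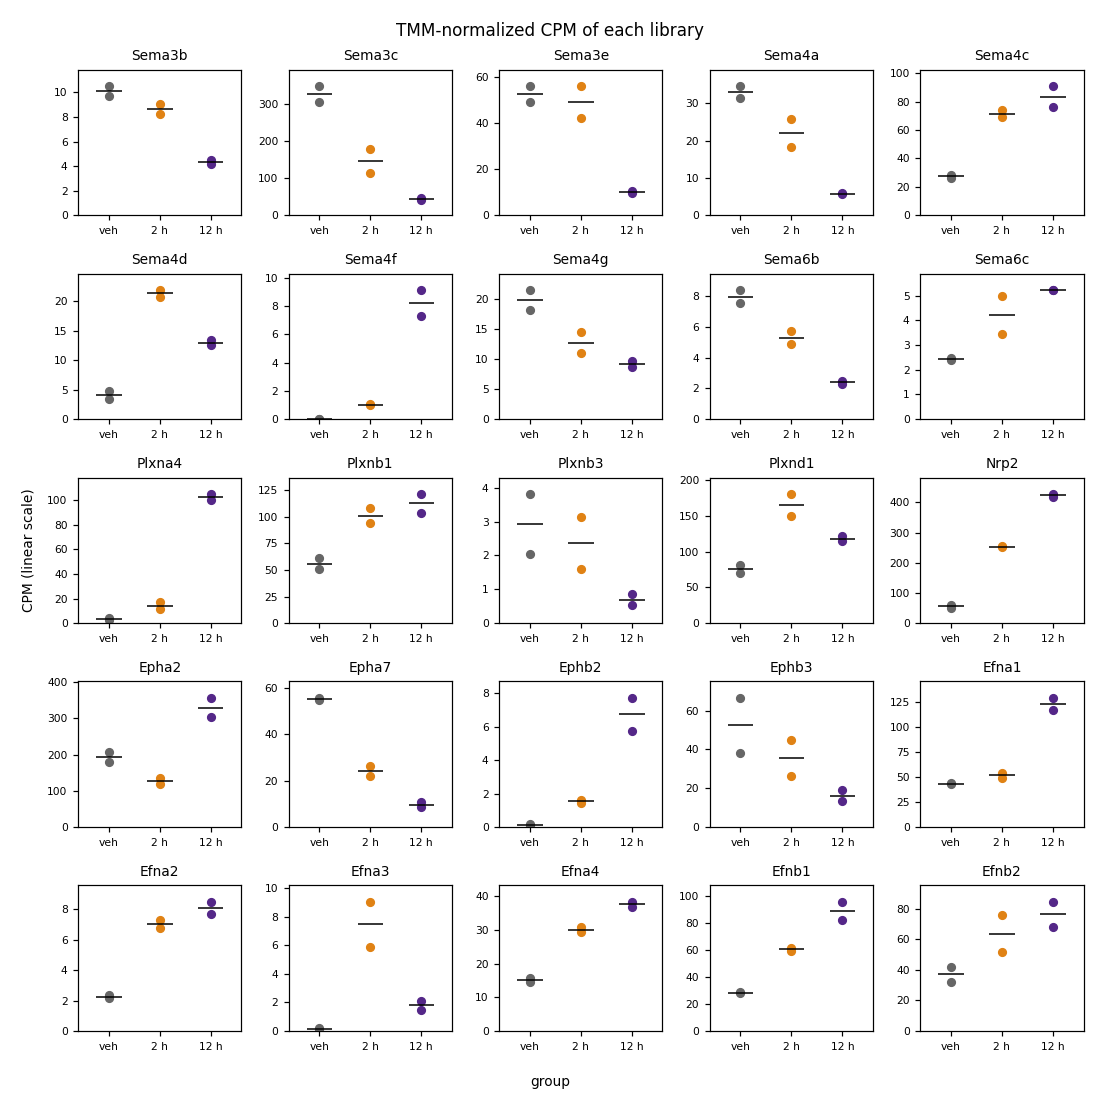
TMM-normalized CPM (vertical axis, linear and starting at 0 in each panel) of the 25 guidance genes called with an absolute log2FC above 1 in any comparison, for the 2 libraries of vehicle (gray), 2 h (orange) and 12 h (purple) of TGFβ1, with the group mean as a bar. Sema4d, Plxnd1 and Efna3 are highest at 2 h, Epha2 is lowest at 2 h, and Ephb3 shows the wide gap between its libraries at 38.2 and 66.7 CPM in vehicle.

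Among the Eph receptors, Ephb2 rose from near absence, Epha7 and Ephb3 fell, and Epha2 went down before it went up. Ephb2, a receptor known in intestinal crypts and at synapses, had 0.176 and 0.0637 CPM in vehicle, 1.47 and 1.61 CPM at 2 h and 7.75 and 5.75 CPM at 12 h. With only 4 counts in the vehicle libraries together, the ratio of pooled levels was 12.6 at 2 h (95% exact interval 4.67 to 47.7) and 55.8 at 12 h (21.6 to 206), and such intervals cover counting error only. Like Sema4f, it passed the filter only through its 12 h libraries. Epha7 had 55.6 and 54.8 CPM in vehicle, 26.3 and 22.0 CPM at 2 h and 8.45 and 10.6 CPM at 12 h. It went down at each time, with log2FC of −1.19 (SE 0.16, adjusted p = 0.00422) and −2.54 (SE 0.16, adjusted p = 9.74e-05). Epha2, a receptor of ephrin-A1 that is common in epithelia and carcinomas, had 208 and 180 CPM in vehicle, 118 and 135 CPM at 2 h and 303 and 357 CPM at 12 h. Each group was apart from the others, and the log2FC was −0.62 at 2 h (SE 0.14, adjusted p = 0.0276) and 0.76 at 12 h (SE 0.14, adjusted p = 0.0047). Ephb3, another receptor of B-class ephrins, had 38.2 and 66.7 CPM in vehicle, 26.4 and 44.8 CPM at 2 h and 13.3 and 18.9 CPM at 12 h. The 12 h libraries were below all others, with a log2FC of −1.70 (SE 0.36, adjusted p = 0.00932). At 2 h each library was below the vehicle library of the same number, and the log2FC of −0.56 was not called (adjusted p = 0.337) but was with the replicate number as a block (adjusted p = 0.00702). Ephb4 fell by a log2FC of −0.45 at 12 h (SE 0.13, adjusted p = 0.0289), and Ephb6, whose kinase domain lacks activity, rose by 0.81 at 2 h (SE 0.18, adjusted p = 0.0307). Epha4 and Ephb1 were not called against vehicle, with 12 h log2FC of −0.37 (SE 0.17) and 0.82 (SE 0.35).

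Several of these Eph calls rested on single libraries. The 2 h call of Epha2 was lost without either vehicle library (adjusted p = 0.159 and 0.0658) and without either 12 h library (0.0568 and 0.0574), and that of Ephb6 without either vehicle library (0.155 and 0.120) and without 2 h replicate 2 (0.0775). At 12 h, Ephb3 was lost without 12 h replicate 1 (0.0796), and Ephb4 without any of the 4 vehicle and 12 h libraries in turn (0.0813 to 0.151).

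All tested ephrins except Efna5 were higher at 12 h by more than 1 on the log2 scale, Efna3 among them having passed the filter only through TGFβ1 libraries. Efna1, the ligand of EphA2, had 43.1 and 43.7 CPM in vehicle, 48.6 and 54.2 CPM at 2 h and 116 and 129 CPM at 12 h. Its 2 h difference was small and not called (log2FC 0.25, adjusted p = 0.194), and the 12 h difference was 1.50 (SE 0.11, adjusted p = 0.000152). Efna3 had 0.0588 and 0.191 CPM in vehicle, 5.86 and 9.07 CPM at 2 h and 1.48 and 2.10 CPM at 12 h. It was highest at 2 h, 61.1-fold above the 4 pooled vehicle counts (95% exact interval 23.6 to 226), and 14.4-fold above them at 12 h (5.41 to 54.4). Efna4 had 14.6 and 15.9 CPM in vehicle, 30.9 and 29.3 CPM at 2 h and 38.4 and 36.9 CPM at 12 h, with log2FC of 0.98 (SE 0.12, adjusted p = 0.00335) and 1.31 (SE 0.12, adjusted p = 0.000316). These 3 A-class ephrins, all tethered by lipid anchors, therefore had different courses, late for Efna1, with a 2 h peak for Efna3 and with the larger step by 2 h for Efna4. Efna2, another A-class ligand, had 2.18 and 2.36 CPM in vehicle, 6.78 and 7.31 CPM at 2 h and 7.71 and 8.52 CPM at 12 h, and most of its rise was present at 2 h (log2FC 1.63 and 1.84, adjusted p = 0.00351 and 0.000632).

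Both tested transmembrane ephrins were higher at 12 h as well, and Efnb3 was below the filter. Efnb1 had 28.5 and 28.1 CPM in vehicle, 59.1 and 61.4 CPM at 2 h and 81.7 and 95.6 CPM at 12 h, with log2FC of 1.09 (SE 0.12, adjusted p = 0.00201) and 1.65 (SE 0.12, adjusted p = 0.000134). The 3 groups did not overlap. Efnb2, the partner of EphB4 in blood vessels, had 32.0 and 42.0 CPM in vehicle, 75.8 and 51.5 CPM at 2 h and 84.6 and 67.8 CPM at 12 h. The 2 h libraries were above vehicle without passing the test (log2FC 0.78, adjusted p = 0.067), and the 12 h difference of 1.04 was called (SE 0.23, adjusted p = 0.0107), though not without vehicle replicate 1 (0.0645) or 12 h replicate 1 (0.0871). Efna5 stayed between 2.36 and 5.85 CPM in all libraries, with adjusted p of 0.584 at 2 h and 0.329 at 12 h.

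Efna4, Efna3 and Efna1 lie next to each other on chromosome 3 (mm9), all on the minus strand and with no other counted gene between them. Efna4 occupies chr3:89137312-89141950, Efna3 chr3:89117821-89126887 and Efna1 chr3:89075655-89085064, and the start sites are 15.1 kb apart for Efna4 and Efna3 and 41.8 kb for Efna3 and Efna1. All 3 were higher than vehicle at 12 h. Between 2 h and 12 h, Efna1 rose (log2FC 1.25, adjusted p = 0.000567) and Efna4 was not called (0.32, adjusted p = 0.0721). Efna3 had a log2FC of −2.06, which is given without a p because both 2 h libraries and 1 of the 12 h libraries carried it past the filter, and of −1.83 without 12 h replicate 1.

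**Figure D4:**
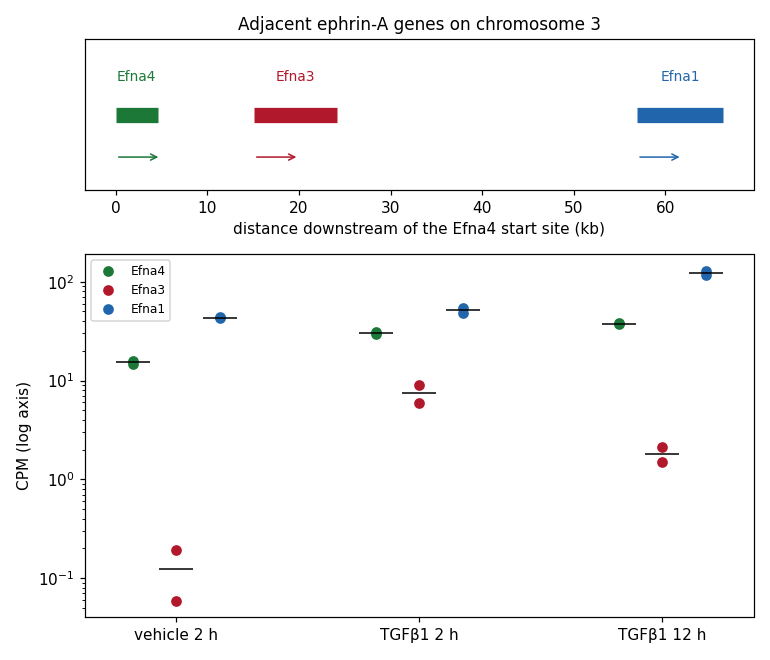
Top, the adjacent genes Efna4, Efna3 and Efna1 drawn to scale by distance downstream of the Efna4 start site in kb, with arrows for the direction of transcription. Bottom, CPM on a log axis of the same genes in each library of vehicle, 2 h and 12 h of TGFβ1, with group means as bars. Efna1 lies slightly above vehicle at 2 h, without a call, and rises to 116 and 129 CPM at 12 h. Efna3 has its highest values of 5.86 and 9.07 CPM at 2 h, and Efna4 rises mainly by 2 h.

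Comparing both TGFβ1 groups with each other, 7 guidance genes were higher at 12 h than at 2 h and 13 were lower by edgeR's quasi-likelihood test. The vehicle libraries still entered the filter, the scaling and the shared spread, since all 6 libraries were in 1 fit. The calls make up 18.4% and 34.2% of the 38, beside 15.2% and 18.9% of all tested genes. With at least 10 counts in every library, which leaves out Sema4f, Ephb2 and Efna3, 5 of 35 were higher and 12 lower (14.3% and 34.3%), beside 14.4% and 17.5% of all genes, so that the share of higher calls was that of all genes. The higher ones were the receptor genes Plxna4 (log2FC 2.87, adjusted p = 0.00049), Ephb2 (2.13), Epha2 (1.39, 0.000878) and Nrp2 (0.74, 0.0047) and the ligand genes Sema4f (2.98), Efna1 (1.25, 0.000567) and Efnb1 (0.56, 0.0105). Among the lower ones, Sema3e (−2.30, 0.000405), Sema4a (−1.94, 0.000962), Sema3c (−1.72, 0.00196) and Epha7 (−1.35, 0.00161) kept this call in each fit that left out a library. Sema6b (−1.14), Ephb3 (−1.14), Sema3b (−1.00), Epha4 (−0.90), Sema4d (−0.72), Plxnb2 (−0.61) and Plxnd1 (−0.49) were also lower, with adjusted p between 0.00651 and 0.0482, and so were Efna3 and Plxnb3 (−2.06 and −1.77), which passed the filter mainly or only through groups where they are higher. Plxnb2 and Epha4, which had no call against vehicle, were at 1303 and 1577 CPM and at 421 and 294 CPM at 2 h, and at 902 and 983 CPM and at 192 and 191 CPM at 12 h.

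These calls between 2 h and 12 h were the most sensitive to single libraries, and 10 of the 20 were lost in at least 1 fit. The higher calls went from 7 to 5 without 12 h replicate 1 and to 4 without 12 h replicate 2, and the lower calls from 13 to 4 and 6. Sema4f and Ephb2 passed the filter only through both 12 h libraries together and were not tested without either of them. Leaving out 12 h replicate 1 lost Efna3, Epha4, Ephb3, Plxnb2, Plxnb3, Plxnd1, Sema3b, Sema4d and Sema6b (adjusted p from 0.0595 for Sema3b to 0.246 for Ephb3). Leaving out 12 h replicate 2 lost Efnb1 (0.0803), Epha4 (0.0773), Ephb3 (0.113), Plxnb2 (0.0770), Plxnb3, Plxnd1 (0.115), Sema4d (0.146) and Sema6b (0.0512). Without 2 h replicate 1 the call of Plxnb3 was lost, and without 2 h replicate 2 those of Ephb3 (0.145), Plxnd1 (0.0878) and Sema4d (0.0622). The direction was the same in every one of these fits.

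By the 3 comparisons together, most of the tested genes shared their course with other members. Efnb1, Nrp2 and Plxna4 were higher in every comparison, and Epha7 and Sema3c were lower in every one. The levels of Ephb2 and Sema4f had the same order as those of the first 3, but both passed the filter only through their 12 h libraries. Plxnd1 and Sema4d were above vehicle at both times and lower at 12 h than at 2 h, an order that the levels of Efna3 also had. Efna2, Efna4, Plxna1, Plxnb1, Sema3f and Sema4c were above vehicle at both times with no call between them. Efnb2 and Sema6c were higher and Ephb4 and Sema4g lower than vehicle at 12 h, with no other call. Ephb6 was called higher at 2 h only. Epha4 and Plxnb2 were called only between the times, as lower at 12 h. Epha2 was below vehicle at 2 h and above both other groups at 12 h. Efna1 was higher and Ephb3, Sema3b, Sema3e, Sema4a and Sema6b were lower at 12 h than in both other groups, without a call at 2 h, and the levels of Plxnb3 had this lower course. In 7 genes, Efna5, Ephb1, Nrp1, Plxna2, Plxna3, Sema4b and Sema6d, no comparison was called. With the replicate number as a block, Plxna2 was called at 2 h and Ephb1, Plxna3 and Sema6d at 12 h against vehicle.

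The remaining 15 members were below the filter. Sema3g and Sema5b had no count in any library, which allows a level of up to 0.0261 CPM over the 115370190 counts of all libraries. Epha3, Epha5, Epha6, Epha10, Plxnc1, Sema3a, Sema3d and Sema6a had at most 6 counts in a library. Efnb3 had 6 to 24 counts, Epha1 8 to 27, Epha8 0 to 11, Sema5a 1 to 18 and Sema7a 0 to 21. Sema7a, whose receptor is plexin-C1, had 1 pooled count in vehicle and 31 at 12 h, a ratio of 23.9 (95% exact interval 3.98 to 973), and Sema5a had 17 in vehicle and 4 at 12 h, 5.52-fold lower (1.80 to 22.5). Epha8 had 16 pooled counts at 2 h and 0 at 12 h, at least 2.86-fold lower against 3 counts in each library. These counts compare the pooled libraries and were not tested across replicates.

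Genes that act with or beside these families were counted from lists of textbook members. Of 22 genes of the other guidance families (netrins, slits and their receptors among them), 7 were tested, and at 12 h 2 were higher and 1 lower, which is 28.6% and 14.3% beside 21.8% and 21.5% of all genes. Unc5b, a netrin receptor, changed most, from 213 and 226 CPM in vehicle to 536 and 509 CPM at 2 h and 798 and 815 CPM at 12 h (log2FC 1.88 at 12 h, adjusted p = 5.4e-05). Of 25 effectors of semaphorins and plexins, 21 were tested, with 2 higher and 2 lower at 2 h, 9.52% each beside 9.91% and 5.25% of all genes. At 12 h 7 were higher and 4 lower, 33.3% and 19% beside the same shares of all genes as above. Rnd3, an atypical GTPase that opposes contractility, fell by a log2FC of −2.02 at 2 h and −1.79 at 12 h (adjusted p = 0.000541 and 0.000202). The monooxygenase genes Mical1 and Mical3, which act on actin below plexins, had 12 h log2FC of 2.59 and 1.14, the Ras family gene Rras 1.26, Dpysl3, of the collapsin response mediators, 1.06, and the atypical GTPase gene Rnd2 −1.42. The adjusted p of Mical3, Rras and Dpysl3 lay between 0.00102 and 0.00294. Mical1 passed the filter only through its 12 h libraries, and Rnd2 only through vehicle and 2 h libraries. Both are included in the counts of calls at 12 h. Of 23 effectors of ephrins and Eph receptors, 20 were tested. At 2 h 5 were higher and 0 lower, which is 25% and 0% beside 9.91% and 5.25% of all genes. At 12 h 9 were higher and 3 lower, or 45% and 15% beside 21.8% and 21.5% of all genes. Rgs3 is among these 9 and Ngef among these 3. Ngef, the exchange factor ephexin that acts below EphA receptors, had 28.4 and 20.8 CPM in vehicle and 22.6 and 17.2 CPM at 2 h but 0.609 and 0.770 CPM at 12 h, a log2FC of −5.15. It passed the filter only through vehicle and 2 h libraries, and with at least 10 counts in every library its adjusted p was 5.21e-05. Src, the kinase that relays Eph and ephrin signals, rose by a log2FC of 1.12 at 2 h and 1.44 at 12 h (adjusted p = 0.00187 and 0.000209), and Rgs3, which binds B-class ephrins, had a 12 h log2FC of 1.87 and passed the filter only through TGFβ1 libraries.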

How the data were processed

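Reads of stranded total RNA from 6 NMuMG libraries were, per the paper's methods and the submitters' processing notes, filtered, aligned by the authors to mm9 with the subjunc function of Rsubread, reduced to unique reads without duplicates (SAMtools 0.1.19) and counted on the exons of known genes with featureCounts, with regard to strand. The deposited values are raw counts of 21240 genes, with no normalization. Removing duplicates from single-end reads lowers the counts of abundant genes.

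For the tests, edgeR 4.0.16 was used under R 4.3.3, with DESeq2 1.42.0 and limma 3.58.1 as alternatives. Positions, sequences and figures were handled under Python 3.11.15 by pandas 2.3.3, numpy 2.4.6 and matplotlib 3.10.9. The test was edgeR's quasi-likelihood test (two-sided, TMM factors, 1 fit of the 3 groups) on genes that reached 2 CPM in 2 or more libraries, with Benjamini-Hochberg adjustment over all tested genes of a contrast. The fit was tested on simulated counts. Standard errors were derived as the absolute log2FC over the square root of the F statistic. A fold against 0 counts was computed against 3 counts in each library. The replicates are named biological in the labels, and with 2 per group no exact permutation test can reach p < 0.05, so calls rest on the spread shared across genes.

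Members were all genes whose symbols match the family names. Members called with an absolute log2FC above 1 in any comparison are given for every library, and genes of the other lists by name where so called at 12 h against vehicle. Members and lists were chosen with earlier results of these data known. For positions and exon lengths, GENCODE vM1 was used, whose NCBIM37 coordinates equal mm9, and 52 of 53 members matched. Promoters of 47 members are from RefSeq on GRCm38.p6. Protein sequences were not used here. Alternatives were limma-voom, DESeq2, other scalings and filters, only the compared groups, the replicate number as a block and each library left out.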

Additional observations from a re-analysis of the deposited data

Results flagged for a closer look

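The change against vehicle differed between 2 h and 12 h for 20 guidance genes, by edgeR's test of 12 h against 2 h at an adjusted p under 0.05. Of the 38 tested, 18.4% were higher and 34.2% lower, beside 15.2% and 18.9% of all tested genes. With at least 10 counts in every library, 5 of 35 were higher and 12 lower, beside 14.4% and 17.5% of all genes. This contrast equals the difference of both log2FC against vehicle, since the vehicle libraries cancel. The difference was positive for Sema4f (2.98), Plxna4 (2.87), Ephb2 (2.13), Epha2 (1.39), Efna1 (1.25), Nrp2 (0.74) and Efnb1 (0.56). It was negative for the semaphorins Sema3e (−2.30), Sema4a (−1.94), Sema3c (−1.72), Sema6b (−1.14), Sema3b (−1.00) and Sema4d (−0.72), for the ephrin Efna3 (−2.06) and for the receptors Plxnb3 (−1.77), Epha7 (−1.35), Ephb3 (−1.14), Epha4 (−0.90), Plxnb2 (−0.61) and Plxnd1 (−0.49). Sema4f and Ephb2 passed the filter only through 12 h libraries, Plxnb3 only through vehicle and 2 h libraries and Efna3 through both 2 h libraries and 1 of the 12 h libraries, where they are higher or, for Efna3 at 12 h, above vehicle. Epha2 was called in opposite directions at 2 h and 12 h against vehicle. Groups of 2 libraries are too small to look for a library that stands apart within its group.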

How the results depend on the processing

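The number of guidance genes lower at 2 h was 3 and moved to 5 with DESeq2, 6 with total counts in place of TMM factors, 8 with the replicate block and 1 when only the compared groups were fitted, and to between 1 and 5 with each library left out. The number higher at 12 h than at 2 h was 7 and lay between 4 and 8 with each library left out, and the number lower was 13 and lay between 4 and 13. The causes were not tested. Every other count of guidance genes at an adjusted p under 0.05 stayed within 1.5 times its value. Of the 2 genes lower by more than 1 on the log2 scale at 2 h, 1 was left when only the compared groups were fitted and without vehicle replicate 1, 2 h replicate 2 or either 12 h library. The 66 calls were recomputed 899 times with no change of sign, and 62 recomputed values were no longer called, 55 of them with a library left out. The others were Ephb3 (adjusted p = 0.0643) and Plxnb3 (0.056) at 12 h against 2 h with limma-voom, and at 2 h Ephb6 (0.0524) and Sema3f (0.0848) with total counts and Epha2 (0.0586), Sema3c (0.0575) and Sema3f (0.087) when only the compared groups were fitted. Sema4f and Ephb2 were not tested without a 12 h library, nor at 2 h against vehicle when only the compared groups were fitted. In that 2 h fit 36 members were tested and 12 were higher. With at least 10 counts in every library, Sema4f, Ephb2 and Efna3 were not tested. Without a filter 51 members were tested, of which 16 rose and 3 fell at 2 h, and 20 rose and 11 fell at 12 h, beside 6.96% and 3.58% of the 16115 genes at 2 h and 15.4% and 16.5% at 12 h.

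Over the 11080 genes, the deviations from the group mean of same-numbered libraries correlated at 0.708 (vehicle with 2 h), 0.263 (vehicle with 12 h) and 0.392 (2 h with 12 h). The labels do not say that a number marks a shared batch or day, and the block is given as an alternative. With the replicate number as a block, 28 guidance genes were called at 2 h (20 higher, 8 lower), 33 at 12 h (22 and 11) and 25 between both times (10 and 15), with no call lost. Of all genes the block called 16.4% higher and 12.7% lower at 2 h, 27.8% and 27.5% at 12 h, and 23.3% and 25.2% between both times. The calls added at 2 h were Efnb2, Epha4, Plxna2, Plxnb2 and Sema6c higher and Ephb3, Ephb4, Sema4a, Sema4g and Sema6b lower, and at 12 h Ephb1, Ephb6, Plxna3 and Sema6d higher and Epha4 lower. At 12 h against 2 h they were Efna4 (adjusted p = 0.0427), Ephb1 and Plxna3 higher and Plxna1 and Sema4g lower. Ephb3, whose 2 h libraries overlap the vehicle range, went from an adjusted p of 0.337 to 0.00702 at 2 h.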
